A study of Homo sapiens with 24 samples.

Results

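The genes described here are 9 that encode adhesion proteins and scaffolds of the epithelial tight junction, taken by symbol as JAM3, its relatives and its junction partners: JAM2, JAM3, F11R, CXADR, ESAM, OCLN, CLDN1, TJP1 and TJP3. They are 9 of the 60675 genes in the count files. Each symbol matched 1 gene identifier, and all 9 had counts in each of the 24 libraries.

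Tight junctions seal neighbouring epithelial cells near their apical side. Claudins and occludin span the membrane and form the strands, and the zonula occludens proteins bind their cytoplasmic tails and tie them to actin. The junctional adhesion molecules are immunoglobulin proteins that sit beside the strands, pair with each other or with integrins, and recruit the polarity proteins of the PAR complex. In the kidney tubule the claudins a cell makes set which ions pass between cells.

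The study measured gene expression by RNA-seq in ACHN, a human renal cancer cell line that the labels call ccRCC, and in HK2, a line from human kidney tubule epithelium. Each line carried a control hairpin (shNC), a hairpin against the histone demethylase KDM5C (shKDM5C), a hairpin against the transcription factor YY1 (shYY1), or both (Dsh), with 3 libraries in each of the 8 groups. The hairpins were delivered by lentivirus in the pLKO.1 vector and every group was a stable, puromycin-selected population. Dsh cells were made from YY1-depleted cells with a GFP-labelled KDM5C hairpin and were also selected for green fluorescence, so that marker and the added infection went with Dsh and cannot be told apart from the added knockdown. A pair of hairpins was built for each target, and which of the pair was sequenced is not given in the sources used here. The labels do not say whether the 3 libraries of a group came from separate cultures, and the methods speak of independent repeats without naming RNA-seq, so the p-values measure the spread between these libraries, which may be technical.

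Each library held 15926561 to 24272298 assigned reads. KDM5C was at 0.602 of shNC in ACHN shKDM5C, at 0.576 in ACHN Dsh, at 0.299 in HK2 shKDM5C and at 0.357 in HK2 Dsh, and YY1 was at 0.544, 0.701, 0.307 and 0.357 in ACHN shYY1, ACHN Dsh, HK2 shYY1 and HK2 Dsh, all with edgeR adjusted p under 0.05. HK2 shKDM5C replicate 1 stood apart: its median absolute log2 difference from the other 2 libraries of its group was 0.501 and 0.494. This difference was 0.0637 to 0.107 within every other group and 0.078 between those 2. Replicate 1 also had the lowest KDM5C of its group, at 37.4 CPM against 68.5 and 67.5, with 191 to 197 in HK2 shNC. Leaving it out thus also removes the library with the deepest KDM5C depletion, and whether the 2 are linked was not tested. The HK2 shKDM5C results of the 9 genes are given with and without replicate 1. The kidney epithelial gene PAX8 was at 535 CPM in ACHN shNC and 257 in HK2 shNC. Of 8 proximal tubule markers only GGT1 and SLC5A2 passed 1 CPM in either line. Of 6 renal carcinoma markers 5 reached 1 CPM in ACHN shNC, with MET at 400 CPM and VEGFA at 117, whereas CA9 was at 0.123. The 6 summed to 520 to 528 CPM in ACHN shNC and 332 to 333 in HK2 shNC. ESAM and JAM2 are also endothelial genes, and 8 endothelial markers summed to only 0.162 to 2.02 CPM over all 24 libraries with KDR at 0 in every one. Here CPM is the number of reads of a gene per 1000000 assigned reads, after scaling within a cell line.

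In the control cells the 9 genes spanned more than 2 orders of magnitude in level per length of exon. In ACHN shNC, CLDN1 stood highest at 43.1 ± 1.72 RPKM (mean ± SD, n = 3; CPM per kilobase of exon), before TJP1 at 30.3 ± 0.417. F11R and JAM3 followed at 7.75 ± 0.217 and 7.41 ± 0.484, which did not differ beyond their spread. F11R shares 36.6% and JAM3 8.53% of exon bases with another gene, so the order of F11R and JAM3 by exon length is uncertain in both lines. Below them came OCLN at 2.15 ± 0.171, TJP3 at 1.65 ± 0.198, ESAM at 0.674 ± 0.175, JAM2 at 0.272 ± 0.0137 and CXADR at 0.262 ± 0.0749, of which the last pair did not differ beyond their spread.

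HK2 shNC had the same 4 genes at the top and a different tail. CLDN1 was at 104 ± 6.91 RPKM, TJP1 at 16.0 ± 0.633, F11R at 9.51 ± 0.223 and JAM3 at 7.72 ± 0.580. CXADR came next at 6.18 ± 0.159, then ESAM at 2.78 ± 0.222 and TJP3 at 2.29 ± 0.266, and the lowest pair, JAM2 at 0.387 ± 0.168 and OCLN at 0.374 ± 0.130, did not differ beyond their spread.

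**Figure D1:**
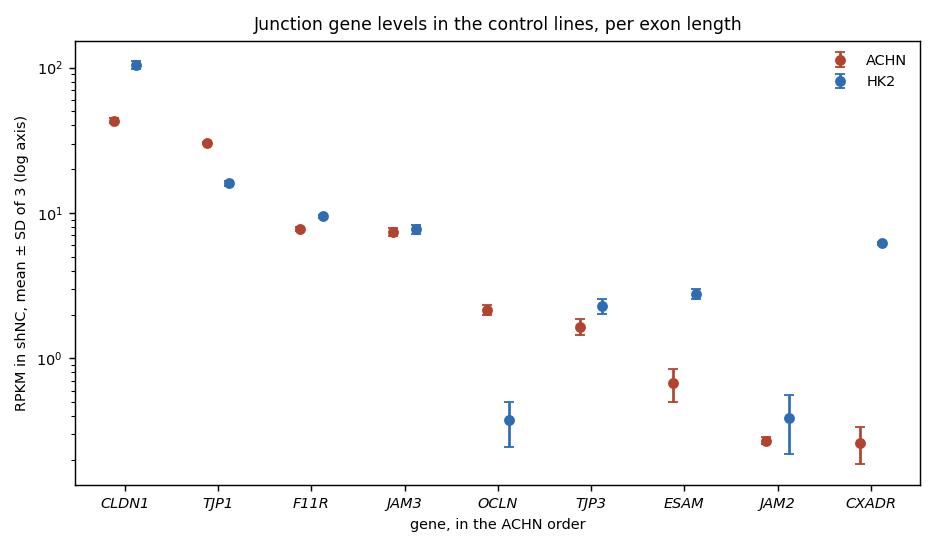
Level of each gene in the shNC libraries in RPKM on a log axis, with points at the mean and bars of 1 SD over 3 libraries, each line scaled on its own. CLDN1 and TJP1 are highest in both lines, and CXADR and OCLN change places between them, from 0.262 RPKM in ACHN to 6.18 in HK2 for CXADR and from 2.15 to 0.374 for OCLN.

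When the shNC libraries of both lines were fitted together, 7 of the 9 genes differed at an edgeR adjusted p under 0.05, where 76.6% of all 16988 genes tested did. CXADR was lower in ACHN by a log2 difference of -4.51 ± 0.13 (SE), and ESAM by -2.004 ± 0.189. OCLN was higher in ACHN, at 2.57 ± 0.17, as was TJP1, at 0.96 ± 0.04. CLDN1, TJP3 and F11R were lower in ACHN at -1.23, -0.43 and -0.26. JAM3 did not pass the test (-0.02 ± 0.07, edgeR adjusted p = 0.785), nor did JAM2 (-0.47 ± 0.30, edgeR adjusted p = 0.152), although without HK2 shNC replicate 1 JAM2 reached -0.79 with adjusted p = 0.00854.

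In the double knockdown JAM3 fell in both lines and CLDN1 rose in both. In ACHN all 9 genes passed edgeR's quasi-likelihood test against shNC in Dsh, 7 lower and 2 higher, against 62.6% of all genes tested, and the median log2 change of the 9 was -1.09 against -0.01 for all genes. In ACHN shKDM5C 8 passed, 5 lower and 3 higher (56.6% of all genes), and in ACHN shYY1 also 8, 5 lower and 3 higher (48.7% of all genes). With that share of all genes called in each ACHN comparison, the sizes given below for each gene carry more than the counts. By the larger fold that the study used for ACHN, an absolute log2 change of at least 1.5 with unadjusted p under 0.05, 3 of the 9 (JAM2, JAM3 and CLDN1) passed in Dsh, where 8.42% of all genes did.

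In HK2 the count was 7 in shYY1, all lower, where 29.1% of all genes were called and 2366 of 16071 were called lower. It was 7 in Dsh, 6 lower and 1 higher, where 49.8% of all genes were called. No gene of the 9 passed in HK2 shKDM5C by edgeR, where 1.32% of all genes did; 5 had an unadjusted p under 0.05 there, DESeq2 called 2, and without replicate 1 edgeR called 6 of the 9 and 3718 of 16642 genes. With an absolute log2 change of at least 1.5 and an adjusted p under 0.05, 0 of the 9 passed in HK2 Dsh, where 4.3% of all genes did. The figure legends of the paper give the same fold and p-value rule for both lines. This 4.3% is at an adjusted p, so it is not at the threshold of the 8.42% in ACHN Dsh. At that fold none of the 9 passed in HK2 Dsh at an unadjusted p either, the largest change being that of JAM3 at -1.37. All 3 knockdown groups of a line share its shNC libraries, so their changes are not independent of each other. When all 4 HK2 groups shared 1 estimate of the spread, only JAM2 and JAM3 stayed called in HK2 shYY1, and only JAM3 and CLDN1 in HK2 Dsh.

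The summed level of 10 kidney epithelial markers, which include KRT8, KRT18 and EPCAM, also moved in Dsh. It ran from 1905 to 2133 CPM in ACHN Dsh against 2937 to 2992 in ACHN shNC, and from 2051 to 2171 in HK2 Dsh against 3549 to 3668 in HK2 shNC. It stood at 3377 to 3494 in ACHN shKDM5C, 3405 to 3462 in ACHN shYY1, 2485 to 2653 in HK2 shYY1 and 3638 to 3815 in HK2 shKDM5C. Most of the lower sum in Dsh lay in KRT8, at 1390 CPM in ACHN shNC and 694 in ACHN Dsh, and at 1849 in HK2 shNC and 816 in HK2 Dsh. PAX8 was higher in Dsh, at 709 against 535 CPM in ACHN and 309 against 257 in HK2, and LHX1 was at 152 against 109 CPM in HK2 and at 4.22 against 22.9 in ACHN. The cadherin gene CDH1 was at 47.2 CPM in ACHN shNC, 5.54 in shKDM5C, 41.6 in shYY1 and 5.23 in Dsh. In HK2 it was low, at 1.34, 3.92, 0.669 and 0.451 CPM in the same order. The part of these markers in the junction gene results was not tested.

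**Figure D2:**
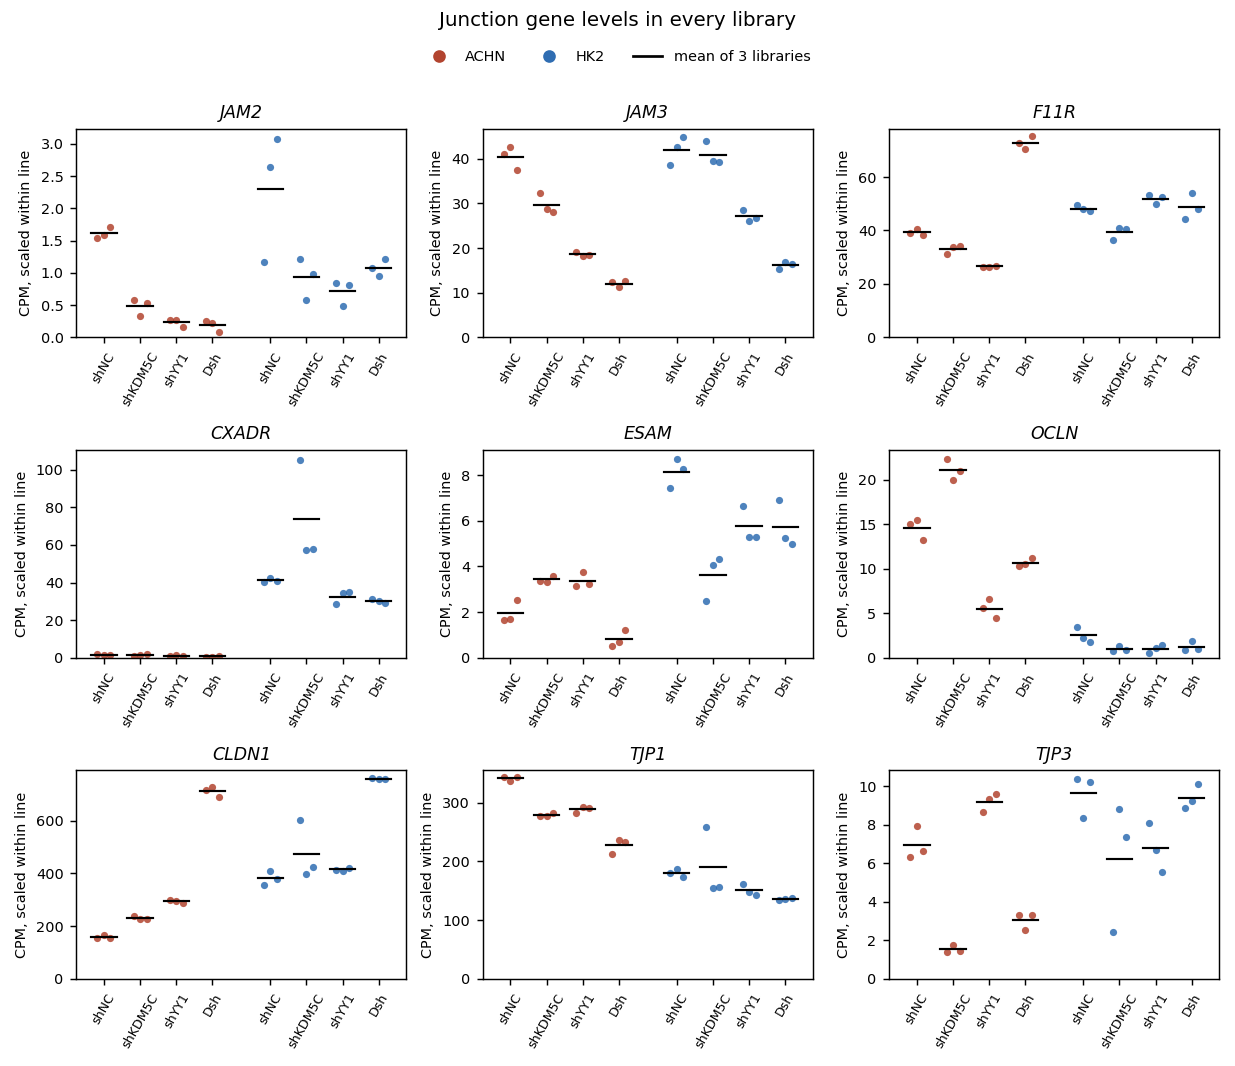
CPM of each of the 9 genes in all 24 libraries, scaled within each cell line, with 1 point a library and a line at the mean of 3. JAM3 steps down through the 4 ACHN groups without overlap, CLDN1 in Dsh stands above every other group in both lines, and HK2 shKDM5C replicate 1 lies apart from its group in CXADR, TJP1, TJP3 and CLDN1.

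JAM3 (ENSG00000166086, chromosome 11, 134068925 to 134152001 of GRCh38) encodes junctional adhesion molecule C, found at epithelial and endothelial contacts and bound by a leukocyte integrin. JAM3 was among the genes that the study picked from these ACHN libraries, so its fall in Dsh is not independent of that choice. The paper also reported the JAM3 fall by qPCR in ACHN. By chromatin immunoprecipitation it reported YY1 at the JAM3 promoter, with less YY1 there after KDM5C depletion. Its ACHN levels were 41.2, 42.5 and 37.4 CPM in shNC, 32.4, 28.7 and 28.1 in shKDM5C, 19.2, 18.3 and 18.5 in shYY1, and 12.4, 11.2 and 12.6 in Dsh. The 4 ACHN groups did not overlap, with shNC highest and Dsh lowest. The log2 changes against shNC were -0.45 ± 0.07 in shKDM5C (edgeR adjusted p = 2.36e-06), -1.13 ± 0.06 in shYY1 (1.13e-16) and -1.74 ± 0.08 in Dsh (1.55e-12), the last being 0.298 of control.

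HK2 held a similar amount of JAM3, at 38.7, 42.6 and 44.9 CPM in shNC. The shKDM5C libraries had 44.0, 39.5 and 39.3 CPM, those of shYY1 28.5, 26.1 and 26.8, and those of Dsh 15.3, 16.9 and 16.4. Thus shKDM5C overlapped the control in HK2, whereas shYY1 and Dsh each lay below it. JAM3 fell by 0.63 ± 0.08 on the log2 scale in HK2 shYY1 (edgeR adjusted p = 3.93e-06) and by 1.37 ± 0.09 in Dsh (5.41e-14), and its change in HK2 shKDM5C was -0.04 ± 0.13 (adjusted p = 0.897; -0.10 and 0.446 without replicate 1). Of the exon bases of JAM3, 8.53% lie also in exons of NCAPD3, a condensin gene, and reads were counted without strand, so reads from those bases cannot be told apart.

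JAM2 (ENSG00000154721, chromosome 21, 25639272 to 25717562), the junctional adhesion molecule B that pairs with the JAM3 protein, was scarce in both lines. ACHN shNC libraries had 1.55, 1.59 and 1.70 CPM, or 30 to 32 reads each. ACHN shKDM5C had 0.581, 0.329 and 0.537 CPM, shYY1 0.262, 0.265 and 0.165, and Dsh 0.255, 0.218 and 0.0808. Every knockdown library of ACHN lay below every control, and the shYY1 and Dsh libraries overlapped each other at 2 to 5 reads. The log2 changes were -1.73 ± 0.33 in shKDM5C (edgeR adjusted p = 7.20e-05), -2.79 ± 0.39 in shYY1 (2.23e-07) and -3.15 ± 0.43 in Dsh (3.48e-06).

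In HK2 the JAM2 controls spread widely, at 1.17, 2.64 and 3.08 CPM. The knockdown libraries lay at 1.22, 0.581 and 0.988 CPM in shKDM5C, 0.837, 0.483 and 0.815 in shYY1, and 1.07, 0.945 and 1.21 in Dsh. The lowest control was thus within the range of shKDM5C and Dsh and above shYY1. JAM2 fell by 1.68 ± 0.42 on the log2 scale in HK2 shYY1 (edgeR adjusted p = 0.00386) and by 1.09 ± 0.38 in HK2 Dsh (0.0168). The Dsh call was lost without shNC replicate 2, shNC replicate 3 or Dsh replicate 2, with adjusted p from 0.0549 to 0.139. In HK2 shKDM5C the change was -1.31 ± 0.47 (adjusted p = 0.268; -1.55 and 0.0139 without replicate 1).

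F11R (ENSG00000158769, chromosome 1, 160995211 to 161021348), which encodes junctional adhesion molecule A, the most widely made of the family in epithelium, turned direction in ACHN. Its levels were 39.1, 40.5 and 38.3 CPM in ACHN shNC, 31.2, 33.8 and 34.2 in shKDM5C, and 26.5, 26.2 and 26.9 in shYY1. In ACHN Dsh they were 72.6, 70.7 and 75.5 CPM. The 4 groups did not overlap, and the group with both hairpins was the highest although each hairpin alone gave lower values than control. F11R fell by 0.26 ± 0.06 on the log2 scale in shKDM5C (edgeR adjusted p = 0.000589) and by 0.59 ± 0.06 in shYY1 (1.26e-10), and rose by 0.89 ± 0.06 in Dsh (1.07e-10), a 1.85-fold rise.

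HK2 gave no such pattern for F11R. The libraries had 49.4, 47.9 and 47.2 CPM in shNC, 36.4, 41.1 and 40.6 in shKDM5C, 53.1, 49.9 and 52.4 in shYY1, and 44.2, 54.1 and 47.9 in Dsh. The shKDM5C libraries lay wholly below control and those of shYY1 wholly above it, while Dsh overlapped it. The log2 change was 0.11 ± 0.07 in HK2 shYY1 (edgeR adjusted p = 0.254), 0.02 ± 0.07 in Dsh (0.821) and -0.29 ± 0.12 in shKDM5C (0.307; -0.24 and 0.0181 without replicate 1). F11R shares 36.6% of its exon bases with the unnamed gene ENSG00000270149, which itself held 4 to 36 reads summed over a group. How reads on shared bases were assigned was not examined here.

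CXADR (ENSG00000154639, chromosome 21, 17512382 to 17593579), the coxsackievirus and adenovirus receptor and a relative of the JAM proteins, was low in ACHN. It had 2.32, 1.38 and 1.54 CPM in ACHN shNC, 1.11, 1.81 and 2.04 in shKDM5C, 1.05, 1.33 and 0.934 in shYY1, and 0.613, 0.765 and 1.05 in Dsh. Only shYY1 and Dsh lay wholly below control. CXADR fell by 1.09 ± 0.33 on the log2 scale in ACHN Dsh (edgeR adjusted p = 0.00745), a call lost without shNC replicate 1 (-0.84, 0.0756), and its changes were -0.68 ± 0.29 in shYY1 (0.0506) and -0.09 ± 0.28 in shKDM5C (0.795). In ACHN shYY1 CXADR was called without shNC replicate 2 (-0.82, edgeR adjusted p = 0.0332) or shYY1 replicate 2 (-0.83, 0.0395), with total counts (-0.70, 0.0454) and with at least 10 counts in every library of a group (-0.68, 0.0450). The pseudogene CXADRP3 held 11 to 20 reads summed over an ACHN group against 52 to 100 for CXADR, so at this level reads of the gene and its copy are uncertain.

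HK2 expressed CXADR at 40.4, 42.5 and 40.9 CPM in shNC. It had 105, 57.3 and 58.0 CPM in shKDM5C, 28.6, 34.5 and 34.8 in shYY1, and 31.3, 30.5 and 29.0 in Dsh. No knockdown group overlapped the control: shKDM5C stood above it, with replicate 1 far above the rest, and shYY1 and Dsh below. CXADR fell by 0.34 ± 0.08 on the log2 scale in HK2 shYY1 (edgeR adjusted p = 0.00332) and by 0.44 ± 0.08 in Dsh (1.33e-05). In HK2 shKDM5C the log2 change was 0.84 ± 0.25 (adjusted p = 0.203) with replicate 1 and 0.48 (1.19e-05) without it.

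ESAM (ENSG00000149564, chromosome 11, 124752583 to 124762290), the endothelial cell-selective adhesion molecule, rose with either hairpin in ACHN and fell with both. ACHN shNC had 1.65, 1.70 and 2.56 CPM, shKDM5C 3.38, 3.34 and 3.60, shYY1 3.14, 3.77 and 3.24, and Dsh 0.511, 0.710 and 1.21. Both groups with 1 hairpin lay above every control and every Dsh library lay below. The log2 changes were 0.80 ± 0.21 in shKDM5C (edgeR adjusted p = 0.00214), 0.76 ± 0.21 in shYY1 (0.00334) and -1.24 ± 0.34 in Dsh (0.00386).

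In HK2 ESAM was lower in every knockdown group. It had 7.41, 8.69 and 8.25 CPM in shNC, 2.50, 4.07 and 4.34 in shKDM5C, 6.64, 5.31 and 5.30 in shYY1, and 6.91, 5.25 and 5.00 in Dsh. No knockdown library reached the lowest control. ESAM fell by 0.50 ± 0.16 on the log2 scale in HK2 shYY1 (edgeR adjusted p = 0.0226) and by 0.50 ± 0.17 in Dsh (0.0151). The first call was lost on leaving out any library but shNC replicate 1 and shYY1 replicate 1, with adjusted p from 0.0630 to 0.0823 in those 4, and the second without shNC replicate 2, Dsh replicate 2 or Dsh replicate 3, from 0.0557 to 0.0672. In HK2 shKDM5C the change was -1.15 ± 0.24 (adjusted p = 0.0836; -0.95 and 0.000312 without replicate 1).

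OCLN (ENSG00000197822, chromosome 5, 69492292 to 69558104) encodes occludin, a strand protein that spans the membrane. ACHN shNC had 15.0, 15.5 and 13.3 CPM, shKDM5C 22.3, 19.9 and 20.9, shYY1 5.603, 6.58 and 4.45, and Dsh 10.4, 10.5 and 11.2. The 4 groups did not overlap, with shKDM5C highest, shYY1 lowest and Dsh between shYY1 and control. OCLN rose by 0.52 ± 0.08 on the log2 scale in shKDM5C (edgeR adjusted p = 6.37e-06), fell by 1.41 ± 0.12 in shYY1 (3.68e-12) and fell by 0.45 ± 0.10 in Dsh (0.000878). The pseudogene OCLNP1 held 16 to 43 reads summed over an ACHN group, against 312 to 1176 for OCLN.

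In HK2 OCLN was near the limit of the counts, with 3.51, 2.24 and 1.83 CPM in shNC, 0.787, 1.32 and 0.878 in shKDM5C, 0.598, 1.09 and 1.46 in shYY1, and 0.894, 1.95 and 0.978 in Dsh. The shKDM5C and shYY1 libraries lay below every control and Dsh overlapped it in 1 library. OCLN fell by 1.26 ± 0.37 on the log2 scale in HK2 shYY1 (edgeR adjusted p = 0.0133) and by 0.98 ± 0.36 in Dsh (0.0240). Without shNC replicate 1 both calls were lost, at -0.95 (0.119) and -0.67 (0.197). The shYY1 call was also lost without shYY1 replicate 1 (0.0641), and the Dsh call without Dsh replicate 1 (0.111) or Dsh replicate 3 (0.0848). In HK2 shKDM5C the change was -1.32 ± 0.38 (adjusted p = 0.186; -1.19 and 0.0253 without replicate 1).

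CLDN1 (ENSG00000163347, chromosome 3, 190305701 to 190322475) encodes claudin-1, a sealing claudin, and had the largest rise of the 9 in Dsh in both lines. Its ACHN levels were 155, 165 and 153 CPM in shNC, 238, 225 and 227 in shKDM5C, 300.3, 295 and 286 in shYY1, and 718, 729 and 689 in Dsh. The groups rose in that order without overlap. The log2 changes were 0.54 ± 0.04 in shKDM5C (edgeR adjusted p = 2.24e-12), 0.88 ± 0.03 in shYY1 (1.16e-21) and 2.17 ± 0.05 in Dsh (2.12e-17), the last a 4.505-fold rise.

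HK2 began at a higher CLDN1 level, with 358, 408 and 379 CPM in shNC, 604, 397 and 424 in shKDM5C, and 413, 410.05 and 422 in shYY1. HK2 Dsh had 761, 757 and 759 CPM. Dsh stood above every other HK2 library, shYY1 lay just above the control, and of the shKDM5C libraries only replicate 2 lay within the control range. CLDN1 rose 2.00-fold in HK2 Dsh (log2 1.00 ± 0.04, edgeR adjusted p = 2.38e-18). Its log2 change was 0.12 ± 0.05 in HK2 shYY1 (0.0677) and 0.32 ± 0.18 in HK2 shKDM5C (0.417; 0.11 and 0.119 without replicate 1). The HK2 shYY1 change was called without shNC replicate 2 (0.17, edgeR adjusted p = 0.0214), by DESeq2 (adjusted p = 0.0466) and with a replicate block (0.0366).

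OCLN and CLDN1, both strand genes, moved in opposite directions in Dsh in both lines, and the 250 bases before their start sites are shown because YY1 binds promoters. They come from RefSeq on GRCh38.p14, where 4 of the 9 genes matched (OCLN, CLDN1, TJP1 and TJP3, with 9 start sites). Each is printed 5′ to 3′ on the strand of the gene, with capitals marking CACCTG or its reverse complement CAGGTG, the E-box letters that zinc finger repressors of epithelial genes bind. The windows are chr5:69492297-69492546 (plus strand), chr5:69492540-69492789 (plus strand) and chr3:190322447-190322696 (minus strand). The starts are those of RefSeq, and both OCLN windows lie inside the OCLN span given above for the counted gene. The second OCLN window follows the first start and overlaps the end of the first window. The CLDN1 window overlaps its counted span in part.
OCLN first start: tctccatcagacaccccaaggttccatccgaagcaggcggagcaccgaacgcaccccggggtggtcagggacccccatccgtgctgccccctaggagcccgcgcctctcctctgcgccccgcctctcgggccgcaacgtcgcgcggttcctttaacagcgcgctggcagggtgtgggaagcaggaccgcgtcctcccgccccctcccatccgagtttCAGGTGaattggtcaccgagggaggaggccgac
OCLN second start: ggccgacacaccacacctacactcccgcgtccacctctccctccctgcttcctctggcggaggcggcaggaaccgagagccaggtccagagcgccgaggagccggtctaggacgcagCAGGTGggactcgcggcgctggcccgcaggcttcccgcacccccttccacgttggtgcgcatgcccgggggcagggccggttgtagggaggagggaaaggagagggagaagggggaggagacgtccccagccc
CLDN1 start: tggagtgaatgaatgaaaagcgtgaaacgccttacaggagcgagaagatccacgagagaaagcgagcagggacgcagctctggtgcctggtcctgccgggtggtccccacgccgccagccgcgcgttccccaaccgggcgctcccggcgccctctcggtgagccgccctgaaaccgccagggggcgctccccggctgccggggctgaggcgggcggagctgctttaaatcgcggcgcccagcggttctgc

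The E-box letters begin 33 bases before the first OCLN start and 133 before the second, and are not in the CLDN1 window. Across the 9 windows of the 4 genes, 4 held them, against 17.5% of 35116 RefSeq windows of the same length. The 4 were both OCLN windows, 1 of TJP1 and 1 of TJP3. Windows of the same gene are not independent, TJP1 has 4 of the 9, and all windows were not matched for G or C. These shares thus cannot show enrichment or its absence. The letters GCCAT or their reverse complement ATGGC, a core of the YY1 motif, were in 0 of the 9 windows and in 29.4% of all windows. The windows cover only bases before a start, and only 4 of the 9 genes, without JAM3. They cannot show whether YY1 sites lie elsewhere in or near the 9 genes. All 3 printed windows are rich in CpG, with 24, 20 and 28 CpG and 68.8%, 70.8% and 68.8% G or C.

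TJP1 (ENSG00000104067, chromosome 15, 29699367 to 29968865) encodes ZO-1, the scaffold that binds claudins, occludin and JAM proteins, and showed small shifts of high precision. The ACHN libraries had 344, 336 and 345 CPM in shNC, 278, 277 and 282 in shKDM5C, 283, 293 and 291 in shYY1, and 213, 236 and 234 in Dsh. All knockdown libraries lay below control and Dsh lay lowest. TJP1 fell by 0.30 ± 0.03 on the log2 scale in shKDM5C (edgeR adjusted p = 3.76e-09), by 0.26 ± 0.03 in shYY1 (1.49e-09) and by 0.59 ± 0.05 in Dsh (2.93e-09).

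In HK2 the TJP1 levels were 181, 188 and 173 CPM in shNC, 259, 155 and 157 in shKDM5C, 162, 148 and 142 in shYY1, and 134, 137 and 138 in Dsh. Apart from shKDM5C replicate 1, which was the highest of the 12, every knockdown library lay below control. TJP1 fell by 0.26 ± 0.06 on the log2 scale in HK2 shYY1 (edgeR adjusted p = 0.00104) and by 0.40 ± 0.05 in Dsh (2.53e-08). In HK2 shKDM5C its change of 0.08 ± 0.21 (adjusted p = 0.856) turned to -0.21 (0.00182) without replicate 1.

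TJP3 (ENSG00000105289, chromosome 19, 3708109 to 3750813) encodes ZO-3, a scaffold related to ZO-1. Its ACHN levels were 6.34, 7.91 and 6.66 CPM in shNC, 1.37, 1.75 and 1.45 in shKDM5C, 8.64, 9.34 and 9.61 in shYY1, and 3.32, 2.51 and 3.31 in Dsh. The 4 groups did not overlap, with shYY1 highest and shKDM5C lowest. TJP3 fell by 2.20 ± 0.18 on the log2 scale in shKDM5C (edgeR adjusted p = 1.14e-10), rose by 0.38 ± 0.12 in shYY1 (0.00708) and fell by 1.18 ± 0.17 in Dsh (4.85e-06).

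In HK2 TJP3 had 10.4, 8.36 and 10.2 CPM in shNC, 2.43, 8.82 and 7.36 in shKDM5C, 8.07, 6.70 and 5.53 in shYY1, and 8.88, 9.21 and 10.1 in Dsh. Dsh overlapped the control, shYY1 lay below it, and shKDM5C replicate 1 was the lowest library. TJP3 fell by 0.51 ± 0.16 on the log2 scale in HK2 shYY1 (edgeR adjusted p = 0.0182), a call lost without shNC replicate 1 (0.0741), shNC replicate 3 (0.0685) or shYY1 replicate 3 (0.105). Its change was -0.03 ± 0.14 in HK2 Dsh (0.878) and -0.62 ± 0.41 in HK2 shKDM5C (0.471; -0.26 and 0.277 without replicate 1).

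**Figure D3:**
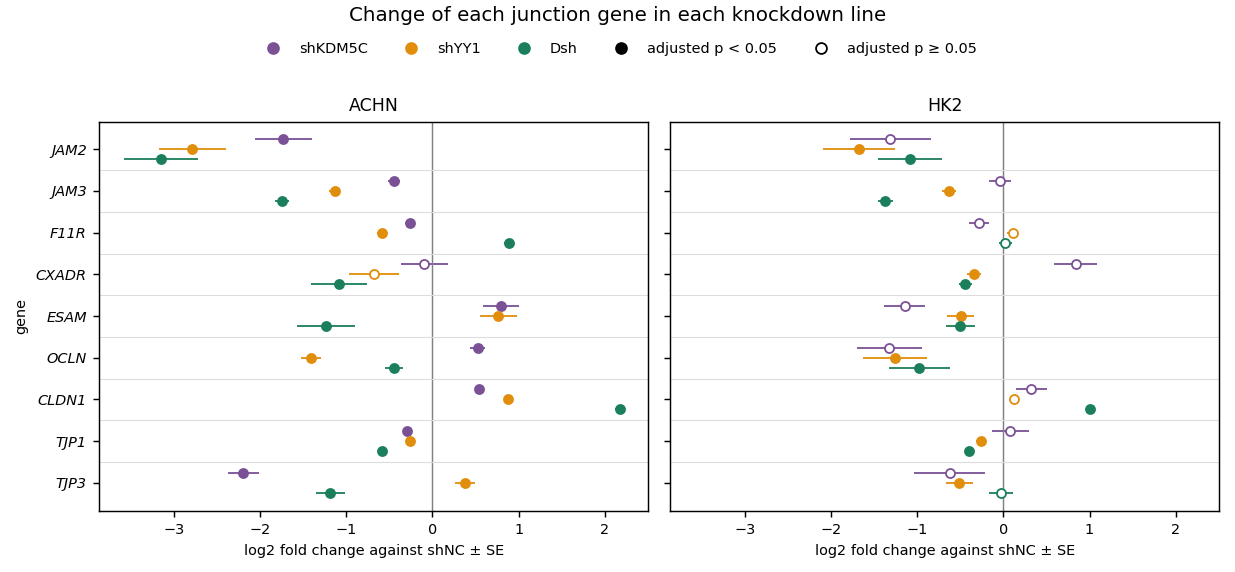
Log2 fold change of each gene against shNC with bars of 1 SE, for shKDM5C, shYY1 and Dsh in each line; filled points have edgeR adjusted p under 0.05. F11R and ESAM in ACHN Dsh lie on the other side of 0 from both groups with 1 hairpin, and no shKDM5C point is filled in HK2.

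The next comparison asked what the further hairpin added to each knockdown. YY1 was less depleted in Dsh than in shYY1, by a log2 difference of 0.35 ± 0.06 in ACHN and 0.22 ± 0.06 in HK2. KDM5C did not pass between Dsh and shKDM5C in either line. In ACHN, Dsh differed from shKDM5C in all 8 genes tested (62.5% of all genes) and from shYY1 in 7 of 8 (64.6% of all genes); JAM2 was too low to be tested there. JAM3 was lower in ACHN Dsh than in shKDM5C by a log2 difference of -1.29 ± 0.09 and than in shYY1 by -0.63 ± 0.09, and CLDN1 was higher by 1.64 ± 0.04 and 1.27 ± 0.04. F11R was higher by 1.15 ± 0.06 and 1.46 ± 0.06 and ESAM lower by -2.03 ± 0.28 and -2.01 ± 0.29. OCLN was lower than in shKDM5C, at -0.97 ± 0.09, and higher than in shYY1, at 0.95 ± 0.14, whereas TJP3 was higher than in shKDM5C, at 1.01 ± 0.24, and lower than in shYY1, at -1.58 ± 0.15. TJP1 was lower in both, at -0.29 ± 0.05 and -0.35 ± 0.05. CXADR was lower than in shKDM5C (-0.99 ± 0.34, edgeR adjusted p = 0.0177), a call lost without shKDM5C replicate 2, shKDM5C replicate 3 or Dsh replicate 1, with adjusted p from 0.0571 to 0.0920.

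HK2 Dsh differed from shYY1 in 3 of the 9 genes, JAM3 (-0.74 ± 0.10), CLDN1 (0.88 ± 0.05) and TJP3 (0.48 ± 0.16), where 47.7% of all genes did. The TJP3 call was lost without shYY1 replicate 3 (edgeR adjusted p = 0.108) or Dsh replicate 3 (0.0593). Against HK2 shKDM5C 3 of the 9 differed, where 11.9% of all genes did: JAM3 (-1.33 ± 0.14), CXADR (-1.28 ± 0.25) and CLDN1 (0.68 ± 0.17). Without shKDM5C replicate 1 there were 5, JAM3 (-1.28), CXADR (-0.93), CLDN1 (0.89), F11R (0.26) and TJP1 (-0.19), and 7197 of 16633 genes. The CXADR call was lost without any 1 Dsh library (0.0972 to 0.112), and the CLDN1 call without any 1 Dsh library or without shKDM5C replicate 2 or 3 (0.109 to 0.166).

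Whether both hairpins together gave more or less than the sum of each alone was tested as an interaction on the log2 scale. The targets themselves departed from the sum in ACHN, KDM5C by -0.42 ± 0.07 (edgeR adjusted p = 6.48e-06) and YY1 by 0.28 ± 0.07 (0.00125). In HK2 neither passed (-0.10 ± 0.24 and 0.03 ± 0.14). KDM5C was also raised in shYY1, 1.26-fold in ACHN and 1.27-fold in HK2. The part of these target levels in the interactions was not tested. In ACHN 5 of the 9 genes departed from the sum, against 55.6% of all genes, so the share was no higher than the background. ESAM departed most, with a sum of 1.56 and an observed -1.24 (interaction -2.81 ± 0.35, edgeR adjusted p = 2.06e-07). F11R followed with a sum of -0.84 and an observed 0.89 (1.71 ± 0.08, 3.05e-15), and CLDN1 with 1.42 and 2.17 (0.73 ± 0.06, 2.65e-11). OCLN (0.42 ± 0.16, 0.0257) and TJP3 (0.61 ± 0.24, 0.0314) passed by less. The OCLN call was lost without shNC replicate 1 or 2, shKDM5C replicate 2, shYY1 replicate 3 or Dsh replicate 3, with values of 0.28 to 0.39, and the TJP3 call without shNC replicate 2, shKDM5C replicate 1 or 3, shYY1 replicate 1 or Dsh replicate 1 or 3, with values of 0.50 to 0.57.

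JAM3 in ACHN was at a sum of -1.58 and an observed -1.74, and the interaction of -0.19 ± 0.11 did not pass (edgeR adjusted p = 0.151). JAM2, CXADR and TJP1 did not pass either, at 1.35 ± 0.72, -0.34 ± 0.45 and -0.05 ± 0.05. JAM2 reached an adjusted p of 0.0458 without Dsh replicate 3, at 1.76.

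In HK2 the interaction passed in 2 of the 9 genes, against 9.61% of all genes. JAM3 was lower than the sum, observed at -1.37 against -0.67 (-0.70 ± 0.15, edgeR adjusted p = 0.00949), a call lost with no filter on low counts (-0.67, 0.0507). ESAM was above it, at -0.50 against -1.64 (1.14 ± 0.30, 0.0329). The ESAM call was lost on leaving out any 1 shNC library, shYY1 replicate 2 or 3, or Dsh replicate 1 or 2, with adjusted p from 0.0591 to 0.0970. Without shKDM5C replicate 1, 6 of the 9 and 5065 of 17642 genes passed: JAM3 (-0.64) and CXADR (-0.58) below the sum, and JAM2 (2.15), ESAM (0.96), TJP3 (0.74) and CLDN1 (0.78) above it. CXADR also passed without shKDM5C replicate 2 or 3, at -1.09 and -1.08, and JAM2 without shNC replicate 1, at 2.22.

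**Figure D4:**
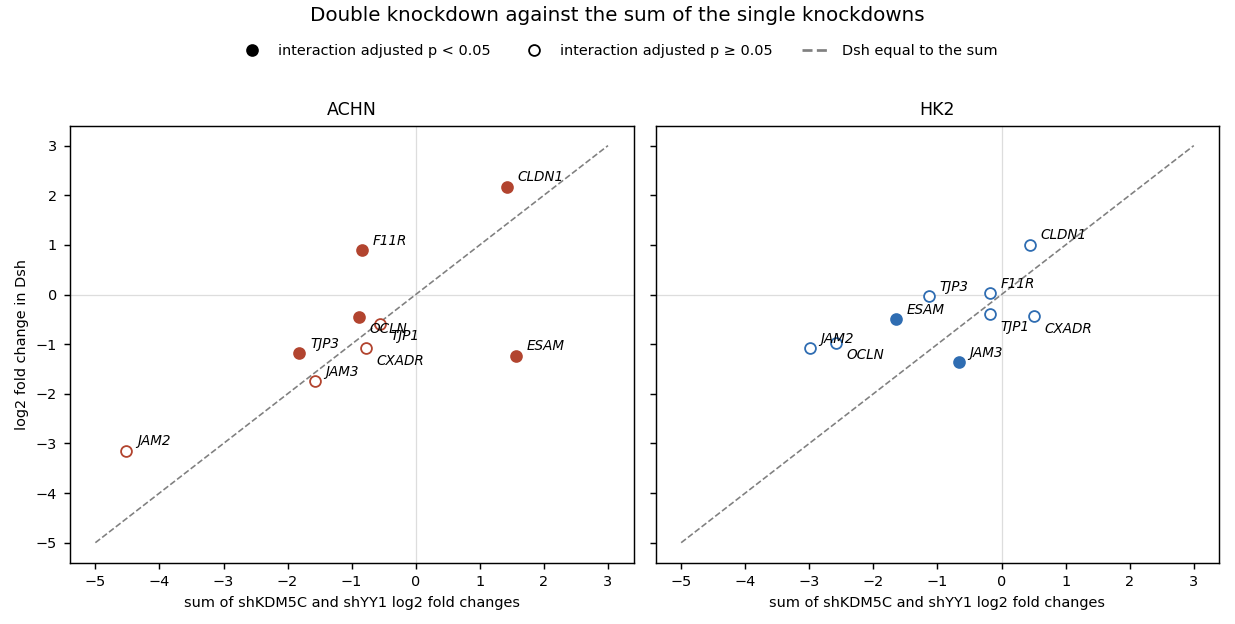
Log2 fold change in Dsh against the sum of the shKDM5C and shYY1 log2 fold changes, 1 point a gene in each line, with all 3 shKDM5C libraries used; filled points have an interaction with edgeR adjusted p under 0.05 and the dashed line marks equality. ACHN ESAM lies far below the line and ACHN F11R above it, while JAM3 lies near the line in ACHN and below it in HK2.

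The same knockdown was then compared between the lines, as the ACHN log2 change minus the HK2 change. For Dsh 6 of the 9 genes differed (46% of all genes): CLDN1 by 1.19 ± 0.06, F11R by 0.89 ± 0.09, TJP3 by -1.13 ± 0.22, JAM2 by -2.04 ± 0.63, JAM3 by -0.36 ± 0.12 and TJP1 by -0.17 ± 0.07. The fall of JAM3 was thus larger in ACHN (edgeR adjusted p = 0.0181), but without HK2 shNC replicate 1 the difference was -0.30 (0.0533). The TJP1 difference was lost without ACHN Dsh replicate 1 (-0.12), HK2 shNC replicate 3 (-0.15) or HK2 Dsh replicate 3 (-0.17), and when libraries were scaled by their totals alone (-0.14, 0.0778). CXADR, ESAM and OCLN did not pass, at -0.62 ± 0.26, -0.71 ± 0.35 and 0.55 ± 0.31. CXADR passed without ACHN shNC replicate 2 (-0.79), ACHN shNC replicate 3 (-0.73) or ACHN Dsh replicate 3 (-0.89), ESAM without ACHN Dsh replicate 3 (-1.17) and OCLN without HK2 Dsh replicate 2 (0.98).

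For shYY1 5 of the 9 differed (33.1% of all genes): JAM3 by -0.49 ± 0.11, F11R by -0.68 ± 0.09, ESAM by 1.27 ± 0.26, TJP3 by 0.91 ± 0.20 and CLDN1 by 0.77 ± 0.06. ESAM and TJP3 rose in ACHN shYY1 and fell in HK2 shYY1. OCLN, which fell in both, did not differ beyond its error (-0.14 ± 0.36). For shKDM5C 2 differed (11.9% of all genes), ESAM by 1.95 ± 0.32 and OCLN by 1.84 ± 0.33, both higher in ACHN shKDM5C than in its control. Without HK2 shKDM5C replicate 1 there were 5 of the 9 and 6289 of 18527 genes: ESAM (1.75), OCLN (1.71), CLDN1 (0.44), JAM3 (-0.35) and TJP3 (-1.93).

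Beyond the 9, 65 further junction genes were followed in 6 lists. In ACHN Dsh 49 were tested, 20 fell and 17 rose, where 62.6% of all genes were called, with a median log2 change of -0.09 against -0.01 for all genes. In HK2 Dsh 44 were tested, 12 fell and 18 rose (49.8% of all genes called), with a median of 0.06 against -0.00. In ACHN shKDM5C 21 of 46 fell and 12 rose (56.6% of all genes called), and in ACHN shYY1 16 of 47 fell and 16 rose (48.7%). In HK2 shYY1 10 of 43 fell and 9 rose (29.1%). In HK2 shKDM5C 2 of 43 fell and 1 rose (1.32%), and without replicate 1, an alternative chosen after seeing the data, 10 of 44 fell and 9 rose (22.3%).

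Of 22 other claudins, 13 were tested in ACHN Dsh (5 lower, 5 higher, against 62.6% of all genes called) and 10 in HK2 Dsh (3 lower, 5 higher, against 49.8%). CLDN2, a claudin that forms cation pores, rose from 0.616 to 9.32 CPM in ACHN Dsh (log2 3.91 ± 0.22, edgeR adjusted p = 2.35e-11) and fell from 92.6 to 72.3 CPM in HK2 Dsh (-0.35 ± 0.06, 3.01e-05). CLDN16, needed for magnesium reabsorption in the kidney, rose in both, from 168 to 352 CPM in ACHN (1.07 ± 0.05) and from 31.8 to 66.8 CPM in HK2 (1.08 ± 0.07). CLDN15 fell in both, by 0.71 ± 0.11 in ACHN and by 0.63 ± 0.17 in HK2 on the log2 scale. CLDN3 fell by 1.02 ± 0.24 in ACHN. CLDN11 rose by 0.85 ± 0.05 in HK2 and fell from 81.3 to 58.4 CPM in ACHN (-0.48 ± 0.06, edgeR adjusted p = 1.04e-06).

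Among 16 strand and scaffold genes, 6 fell and 5 rose of 16 tested in ACHN Dsh, and 3 fell and 8 rose of 15 in HK2 Dsh, where 62.6% and 49.8% of all genes were called. CGN, which encodes the ZO-1 partner cingulin, fell from 15.6 to 2.03 CPM in ACHN (-2.95 ± 0.14, edgeR adjusted p = 2.01e-12) and from 24.3 to 7.001 CPM in HK2 (-1.79 ± 0.12, 7.11e-14). Its relative CGNL1 fell by 1.17 ± 0.06 in HK2. In ACHN Dsh the 2 largest called falls of this list, at 5 CPM or more, were those of CGN and MAGI1. YBX3, a Y-box factor that binds ZO-1, rose from 207 to 587 CPM in ACHN (1.501 ± 0.0437). ILDR2, of a family found at tricellular contacts, rose in both lines, by 0.79 ± 0.06 in ACHN and 1.04 ± 0.11 in HK2. MAGI1 fell by 0.41 ± 0.07 in ACHN and rose by 0.504 ± 0.0636 in HK2, and MAGI3 rose by 0.64 ± 0.10 in HK2.

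The polarity partners, which JAM proteins recruit through PARD3, had 5 lower and 2 higher of 9 in ACHN Dsh, and 4 lower and 1 higher of 9 in HK2 Dsh, beside the same 62.6% and 49.8% of all genes. CRB3, the epithelial crumbs protein, fell in both lines (-0.80 ± 0.11 and -0.84 ± 0.12). In ACHN the kinase gene PRKCZ fell by 1.00 ± 0.09 while PARD6A and PARD6B rose by 1.47 ± 0.18 and 1.204 ± 0.0894. PARD3B fell by 1.04 ± 0.23 in HK2.

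The nectin list held nectins, adhesion proteins of the neighbouring adherens junction, and PVR, which is nectin-like rather than a nectin. Of its genes 4 of 4 tested rose in ACHN Dsh, with PVR at 0.62 ± 0.05 and NECTIN3 at 0.57 ± 0.06. There 62.6% of all genes were called in either direction, and 5044 of 16454 rose. In HK2 Dsh 1 rose, PVR (0.37 ± 0.05), and 1 fell, NECTIN1 (-1.19 ± 0.13), of 4 (49.8% of all genes called). Among the integrin subunits that bind JAM proteins, ITGB1 rose in both lines (0.53 ± 0.04 and 0.57 ± 0.04), and ITGA4 fell by 0.80 ± 0.06 in ACHN. ITGAX rose from 5.61 to 24.5 CPM in HK2 (2.14 ± 0.13) and fell from 2.95 to 0.805 CPM in ACHN (-1.88 ± 0.26, edgeR adjusted p = 3.61e-06). ITGB2 fell from 10.9 to 2.97 CPM in HK2 (-1.86 ± 0.17), and in ACHN it was at 78.7 CPM in shNC and 80.5 in Dsh. Of 7 further JAM relatives only CLMP and VSIG1 were tested; CLMP fell by 0.27 ± 0.06 in ACHN Dsh and rose by 0.25 ± 0.07 in HK2 Dsh, and VSIG1 fell by 1.14 ± 0.16 in ACHN Dsh.

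**Figure D5:**
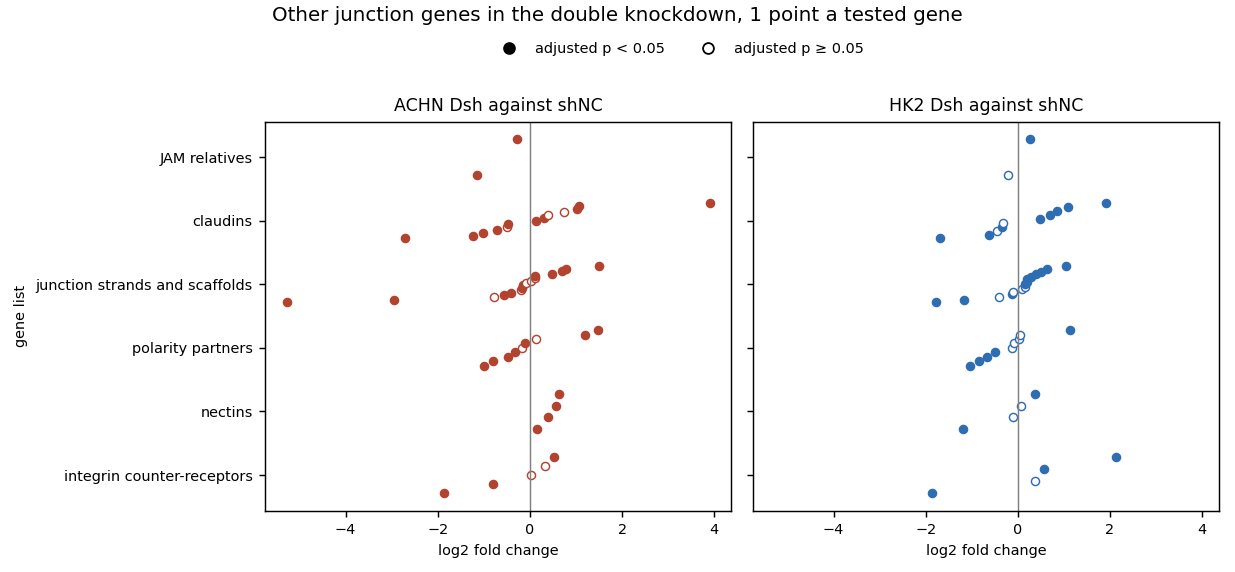
Log2 fold change in Dsh against shNC for each tested gene of the 6 lists, 1 point a gene, filled where edgeR adjusted p is under 0.05. Points lie on both sides of 0 in most lists. All 4 tested genes of the nectin list lie to the right in ACHN, and the claudin farthest to the right in ACHN is CLDN2 at 3.91.

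The genes whose pattern was most like that of JAM3 were taken by Pearson correlation of log2(CPM + 1) over the 12 libraries of a line, as a description only, since the points share 4 groups and any gene with the same steps between groups would score high. In ACHN, out of 11343 genes with a mean of at least 5 CPM, these were TPMT (0.986), TGFB2-AS1, PLEKHG4B, CRYBG2 and S1PR1 (0.981). TPMT, for example, ran from 45.0 CPM in shNC through 36.8 in shKDM5C and 23.96 in shYY1 to 15.7 in Dsh. In HK2, out of 11372 genes, they were ICMT (0.986), EPB41L3, VAV3, POLR2A and PA2G4 (0.974), all 12 libraries used, with EPB41L3 at 402 CPM in shNC, 406 in shKDM5C, 283 in shYY1 and 172 in Dsh. Without HK2 shKDM5C replicate 1, also an alternative chosen after seeing the data, these correlations were 0.975 to 0.985 over 11 libraries, and 1 of the 5, ICMT, was still among the first 5. No gene was among the 5 in both lines.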

How the data were processed

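Human ACHN and HK2 cells were sequenced as 24 libraries in 8 groups. Per the labels and file headers, the authors aligned reads with HISAT2 2.0.5 to hg38 and deposited raw counts per Ensembl gene from featureCounts, without strand; the headers name version 2.0.1 and the processing notes 1.5.0-p3. Of 60675 genes, 56558 had a symbol.

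The deposited counts were tested with edgeR 4.0.16 (R 4.3.3) by the quasi-likelihood F test after filterByExpr and TMM scaling, with p-values adjusted by the Benjamini-Hochberg method across every gene tested, on the groups compared only. Errors are SE. CPM was scaled within a cell line and divided by exon length in kb for RPKM. The code was checked on simulated counts. The 9 genes and all lists were chosen with earlier results of these data known. Other genes named are, per list and line, up to 2 higher and 2 lower in Dsh by largest change with adjusted p under 0.05 and at least 5 CPM, and the 5 genes most like JAM3. Alternatives were RLE size factors, total counts, no filter, at least 10 counts in every library of a group, DESeq2 1.42.0, a replicate block, all 4 groups in a fit, and leaving out each library.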

Additional observations from a re-analysis of the deposited data

Results flagged for a closer look

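The effect of the same knockdown differed between the cell lines, by a test of the difference itself (edgeR, ACHN log2 change minus HK2 log2 change), for several of the genes. Under Dsh these were JAM2 (-2.04), JAM3 (-0.36), F11R (0.89), TJP1 (-0.17), TJP3 (-1.13) and CLDN1 (1.19). With 1 library left out, the JAM3 difference was called in 11 of 12 fits and that of TJP1 in 9 of 12. Under shYY1 they were JAM3 (-0.49), F11R (-0.68), ESAM (1.27), TJP3 (0.91) and CLDN1 (0.77). Under shKDM5C they were ESAM (1.95) and OCLN (1.84). The starting levels of these genes also differed between the lines for 7 of the 9, and KDM5C and YY1 were depleted to different degrees. The log2 difference under Dsh was 0.71 for KDM5C and 0.99 for YY1. It was 0.84 for YY1 under shYY1 and 1.02 for KDM5C under shKDM5C. The part of starting levels or of depletion in these values was not tested.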

How the results depend on the processing

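Each group had 3 libraries, and low counts of JAM2 in both lines, CXADR and ESAM in ACHN and OCLN in HK2 limit precision. The number of the 9 genes called in HK2 shKDM5C was 0, and was 1 with no filter and 2 with DESeq2 or with all 4 groups in the fit. With all 4 groups in the fit it was 2 in place of 7 in HK2 shYY1, 2 in place of 7 in HK2 Dsh and 6 in place of 3 in HK2 Dsh against shKDM5C. DESeq2 called 4 in HK2 Dsh, 3 of the ACHN interactions in place of 5, and 4 of the shKDM5C differences between lines in place of 2. The HK2 interaction, 2 by edgeR, was 4 with total counts, no filter or DESeq2, and JAM3 lost that call with no filter (-0.67, adjusted p = 0.0507). The cause of these shifts was not tested.

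Same-numbered libraries did not clearly deviate together (correlations of -0.334 to 0.123). No pairing by number was seen, although 3 libraries a group cannot show that it is absent. With a replicate block the HK2 interaction count was 1, CLDN1 lost its call in HK2 Dsh against shKDM5C (0.70, adjusted p = 0.0819), and CLDN1 gained one in HK2 shYY1 (0.12, 0.0366), as did TJP1 in HK2 Dsh against shYY1 (-0.13, 0.0424).

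On leaving out 1 library at a time the counts ran from 0 to 6 in HK2 shKDM5C, 5 to 6 in HK2 Dsh (7 with all libraries), 5 to 7 in HK2 shYY1, 1 to 5 in HK2 Dsh against shKDM5C, 3 to 5 in the ACHN interaction, 1 to 6 in the HK2 interaction, 2 to 5 in the shKDM5C difference and 5 to 8 in the Dsh difference between lines. Over all alternatives 1886 values kept their direction and side of the threshold, 78 lost a call, 56 gained one and 33 changed sign; none of the last was called either way, save TJP1 in HK2 shKDM5C, called without replicate 1. With 1 library left out they ran from -0.27 to 0.17 for CXADR in ACHN shKDM5C. In HK2 shKDM5C they ran from -0.21 to 0.21 for TJP1 and from -0.096 to 0.0112 for JAM3. In HK2 Dsh they ran from -0.0599 to 0.0903 for F11R and from -0.12 to 0.0209 for TJP3. For HK2 Dsh against shKDM5C they ran from -0.0304 to 0.46 for JAM2 and from -0.0911 to 0.61 for OCLN. For HK2 Dsh against shYY1 they ran from -0.16 to 0.11 for ESAM and from -0.16 to 0.60 for OCLN. The TJP1 interaction ran from -0.34 to 0.0818 in HK2. Between lines they ran from -0.0106 to 0.0929 for F11R under shKDM5C, from -0.02996 to 0.0628 for TJP1 and from -0.45 to 0.17 for OCLN under shYY1, and from -0.0826 to 0.0405 for JAM3 in shNC. With total counts the sign also turned for TJP1 in HK2 shKDM5C (-0.0328), F11R in HK2 Dsh (-0.014) and the ACHN TJP1 interaction (0.0435). ESAM in HK2 Dsh against shYY1, 0.00137 by edgeR, was -0.00917 with RLE, -0.00743 with no filter, -0.00892 with DESeq2, -0.00671 with all 4 groups, -0.000294 with total counts, -0.00201 with at least 10 counts in every library of a group and -0.00259 with the replicate block.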
